A study of Mus musculus with 8 samples.

Results

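The cytosolic ribosome is built from ribosomal RNA and a large set of ribosomal proteins, each encoded by its own gene, with Rpl genes for the large subunit and Rps genes for the small one. Growing cells transcribe these genes very strongly, and their messengers begin with a run of pyrimidines, the 5′ terminal oligopyrimidine (TOP) tract, through which the kinase mTORC1 and the RNA-binding protein Larp1 control their translation. In T cell progenitors the supply of ribosomal proteins is linked to growth and to the p53 checkpoint, and in mice Rpl22 is needed for development of the αβ T lineage. The transcripts of these genes were followed here in mouse thymic lymphoma cells in which an inducible form of Ikaros, a zinc finger transcription factor of lymphocytes, was switched on.

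Members were the genes measured by at least 1 probe set whose only annotated symbol begins with Rpl or Rps and a number, together with Rplp0, Rplp2 and Rpsa. S6 kinase genes, pseudogene symbols and Rps19bp1 were left out. This gave 49 genes of the 18193 genes tested, 22 of the large subunit, 21 of the small subunit and 6 paralogs (Rpl22l1, Rpl39l, Rpl3l, Rpl7l1, Rps27l and Rps4l). The probe set with the highest mean over the 8 arrays stood for a gene. In all, 105 probe sets carried a member's symbol alone, and 24 of the 49 genes had more than 1. A further 110 probe sets carried several symbols of which at least 1 was a ribosomal protein gene. Rpl3, Rpl5, Rpl10, Rpl10l, Rpl35a, Rpl36a, Rpl36al, Rplp1 and Rps27a had no probe set of their own symbol alone and were not analysed here.

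The arrays came from T29, a thymic lymphoma cell line that the series text describes as deficient in Ikaros. The cells carried either the retroviral construct MigR1-Ik1ER, which adds the inducible Ikaros, or the MigR1 vector without it. Each was treated for 24 h with 100 nM 4OHT (4-hydroxytamoxifen) or with ethanol, the solvent. The 4 groups were Ik1ER cells in 4OHT, Ik1ER cells in ethanol, MigR1 cells in 4OHT and MigR1 cells in ethanol, with 2 arrays each. All groups share the same line and its Ikaros deficiency, so they stand for 1 tumour line. The labels do not say whether replicates were separate cultures or transductions, so p-values measure the spread between these arrays, which may be technical.

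Of the 12 T lineage markers listed, 10 were measured and all 10 lay above the brightest Bacillus control probe set (mean 5.27), at 7.21 to 13.42. Of the markers of other cells, 2 of 6 measured B lineage genes, 3 of 8 myeloid genes, 2 of 4 erythroid genes and 2 of 7 stromal genes were above it. Array medians ran from 5.36 to 5.43 and pairwise correlations of arrays from 0.993 to 0.998. Both Ik1ER replicate 2 arrays stood apart on controls. The 3′ minus 5′ signal of the Tfrc control was 1.91 (4OHT) and 1.66 (ethanol) on them, against 1.15 to 1.39 on the other arrays. The 18S control was 10.07 on the Ik1ER ethanol replicate 2 array and 8.54 to 9.18 on the others, and the hybridisation controls read 8.86 on the Ik1ER 4OHT replicate 2 array and 9.41 to 9.54 on the others.

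The start regions of the members that the results turn on are shown first, because the TOP tract is the feature by which the family is known. Each window runs from 10 bases before to 20 bases from the RefSeq transcription start (build GRCm38.p6), and capitals mark a C followed by at least 5 pyrimidines. Rpl12 lies at chr2:32961702-32961731 (plus strand), Rpl27a at chr7:109519185-109519214 (plus), Rps24 at chr14:24490668-24490697 (plus), Rps10 at chr17:27635225-27635254 (minus), Rps18 at chr17:33955646-33955675 (minus), Rps6 at chr4:86857348-86857377 (minus) and Rpl22 at chr4:152325716-152325745 (plus).
Rpl12: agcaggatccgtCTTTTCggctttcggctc
Rpl27a: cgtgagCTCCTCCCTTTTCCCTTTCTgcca
Rps24: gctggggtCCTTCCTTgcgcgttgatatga
Rps10: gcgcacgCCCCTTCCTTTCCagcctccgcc
Rps18: cacttccgCTCTCTCTTCCacaggaggcct
Rps6: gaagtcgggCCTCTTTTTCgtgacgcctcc
Rpl22: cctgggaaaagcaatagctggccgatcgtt

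Of the 49 members, 43 were matched by symbol to a RefSeq promoter. A tract of this kind stood in the window of 25 of the 43 (58.1%), against 24.9% of all 27025 genes with a promoter. The tract of Rpl27a was 20 bases long and that of Rps10 13, while that of Rpl12 had 6 bases and Rpl22 had none in this window. Over 250 bases before to 50 bases after the start, on both strands, the ETS family motif CCGGAAG was in 21 members (48.8%), against 9.93% of all genes. TGGGAA, a core sequence bound by Ikaros, was in 13 members (30.2%), against 28.3% of all genes. The E-box CACGTG was in 4 members (9.30%), against 8.09%, and TATAAA in 6 (14.0%), against 15.7%. A match is only a run of letters and says nothing of a bound factor. The Rpl12 promoter, the member with the called change, held none of the motifs other than the tract, which is again in capitals at its end (chr2:32961462-32961731, plus strand):
Rpl12 promoter: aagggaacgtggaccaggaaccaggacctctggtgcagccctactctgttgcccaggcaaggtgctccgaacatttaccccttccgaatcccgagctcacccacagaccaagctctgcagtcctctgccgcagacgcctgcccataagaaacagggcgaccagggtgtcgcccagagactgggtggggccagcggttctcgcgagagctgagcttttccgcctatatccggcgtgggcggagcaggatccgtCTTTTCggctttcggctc

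Read through the brightest probe set of each gene, the ribosomal protein genes gave a single call when Ik1ER cells were treated. Of these 49 readings, 34 lay near the top of the scale, where compression of a change was not tested, and the members' probe sets of middle brightness, described further on, were mostly lower. In 4OHT against ethanol, 1 of the 49 members passed an adjusted p under 0.05 in limma's moderated test over all genes, Rpl12, which was lower. The same test called 5.34% of all genes, 2.53% as lower, so the single call among the members is a share no higher than that background. The median log2 change of the members was -0.01, against -0.004 for all genes, and 34 of the 49 (69.4%) were below 0. Of all genes 51.2% were below 0. Above 13 on the log2 scale 70.6% of the 34 members were below 0, against 54.3% of the other 129 genes. Of all probe sets above 13, which include those of the members, 65.4% were below 0. In 42 of the 49 (85.7%) the change lay within 0.1 of 0 on the log2 scale, against 51.1% of all genes. Among the 45 members above the control limit it was 39 (86.7%). Leaving out Rps16, which lay below that limit, the small subunit had 20 of 20 genes within 0.1, and the large subunit 17 of 22. The subunits were not compared at like brightness. The large subunit genes outside 0.1 were those read by sets below 13 (Rpl12, Rpl14, Rpl27a, Rpl37 and Rpl39). Of the 20 small subunit genes only Rps6, Rps25 and Rps27 were read by such sets. Dimmer sets of Rps10, Rps18, Rps20 and Rps24, described further on, lay outside 0.1.

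**Figure D1:**
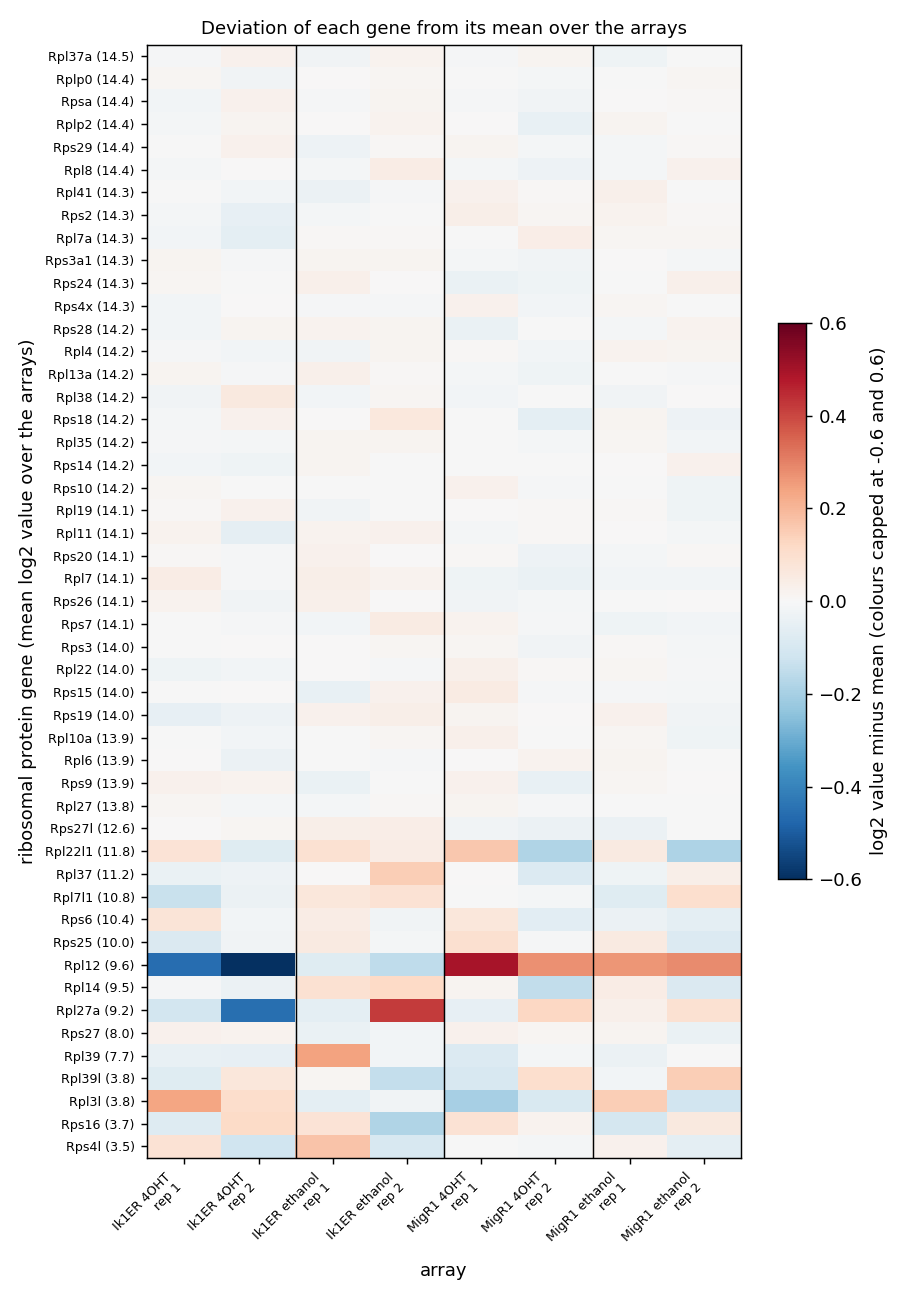
Each row is a ribosomal protein gene, ordered by its mean log2 value over the 8 arrays (in brackets), each column is an array, and colour gives the log2 value minus the gene's mean. The 34 genes above 13 are almost blank, and Rpl12 is low on both Ik1ER 4OHT arrays, lower than on both Ik1ER ethanol arrays, and high on all 4 MigR1 arrays.

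Between MigR1 arrays, where 4OHT meets no Ik1ER, 0 members were called, with 0 at an unadjusted p under 0.05. The background there was 0% of genes called by limma, and 2.12% at an unadjusted p under 0.05. The members' median change was 0.0004 and 47 of the 49 lay within 0.1. In the difference of the 4OHT effects between the 2 kinds of cells, 0 members were called (2 at an unadjusted p under 0.05), with 1.26% of all genes called, 0.649% as lower. Ik1ER against MigR1 cells in 4OHT gave 1 member called, again Rpl12 and again lower, with 5.08% of genes called and 2.17% called lower. The same comparison in ethanol gave 0 members called (1 at an unadjusted p under 0.05), with 0% of genes called and 5.32% at an unadjusted p under 0.05. These comparisons share arrays. The Ik1ER 4OHT arrays serve in the 4OHT comparison within Ik1ER cells and in the comparison of the lines in 4OHT, so the Rpl12 calls are not independent.

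**Figure D2:**
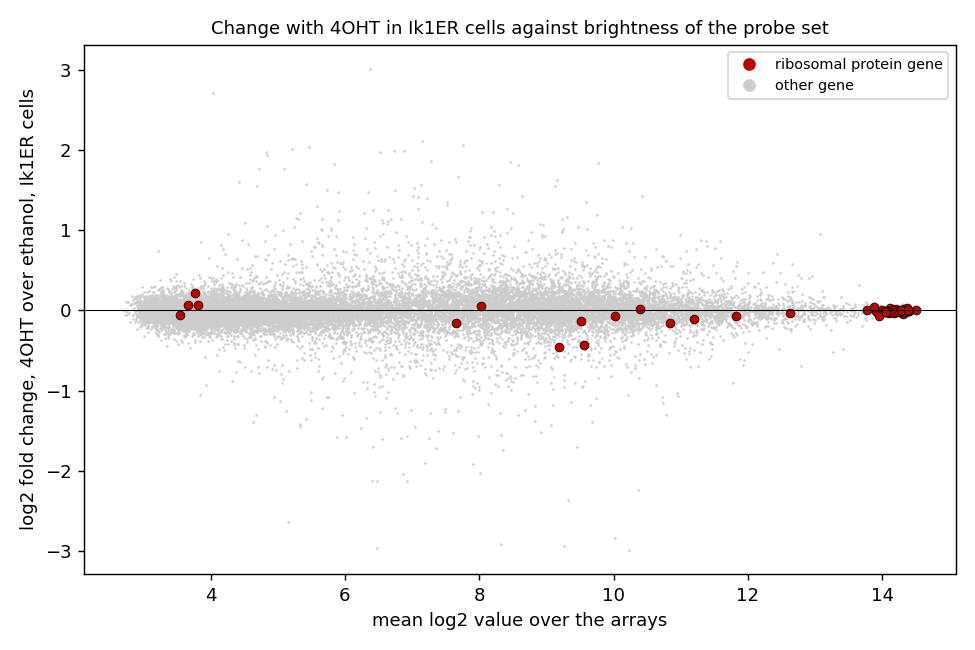
The log2 change in Ik1ER cells, 4OHT over ethanol, is plotted against the mean log2 value over the 8 arrays for each gene, with ribosomal protein genes in red and other genes in grey. The members gather at the right edge near 14 with changes close to 0, and the lowest members, Rpl27a and Rpl12, lie between 9 and 10.

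Rpl12 encodes a protein at the base of the stalk of the large subunit, where translation factors bind. It read 9.10 and 8.92 on the Ik1ER 4OHT arrays, 9.48 and 9.40 on the Ik1ER ethanol arrays, 10.05 and 9.83 on the MigR1 4OHT arrays, and 9.82 and 9.84 on the MigR1 ethanol arrays (log2 values). Both Ik1ER 4OHT arrays were below both Ik1ER ethanol arrays, and all 4 Ik1ER arrays were below all 4 MigR1 arrays. In Ik1ER cells, 4OHT over ethanol was -0.43 (SE 0.0985, 95% interval -0.66 to -0.21, limma adjusted p = 0.0458), a ratio of 0.740. Between the lines in 4OHT, Rpl12 was -0.93 in Ik1ER over MigR1 cells (adjusted p = 0.00227). Between the lines in ethanol the difference was -0.39 and did not pass (adjusted p = 0.913). The test of the difference between the 4OHT effects gave -0.55 and did not pass either (adjusted p = 0.136), so the drop in Ik1ER cells is not shown to differ from the 0.11 measured in MigR1 cells. The call within Ik1ER cells is close to the threshold. It was lost when any of the 4 Ik1ER arrays or either MigR1 ethanol array was left out (adjusted p up to 0.206), and kept when either MigR1 4OHT array was left out. Without both Ik1ER replicate 2 arrays the change was -0.39 (adjusted p = 0.234). The call between the lines in 4OHT was kept in every one of these fits, at adjusted p = 0.0254 without both Ik1ER replicate 2 arrays.

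Rpl27a, another large subunit protein, had the lowest change of all members in Ik1ER cells. Its values were 9.08 and 8.74 in Ik1ER 4OHT cells, 9.13 and 9.60 in Ik1ER ethanol cells, 9.14 and 9.31 in MigR1 4OHT cells, and 9.22 and 9.28 in MigR1 ethanol cells. The pairs in Ik1ER cells did not overlap, but 9.08 and 9.13 lay side by side and the wide spread came from the replicate 2 arrays. The change was -0.46 (95% interval -0.85 to -0.07) and did not pass (adjusted p = 0.193). Without the Ik1ER ethanol replicate 2 array or without the Ik1ER 4OHT replicate 2 array it was nearer 0, and over all fits with 1 array left out it ran from -0.70 to -0.22. Without both of these arrays, which stood apart on controls, it was -0.05 (adjusted p = 0.895).

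**Figure D3:**
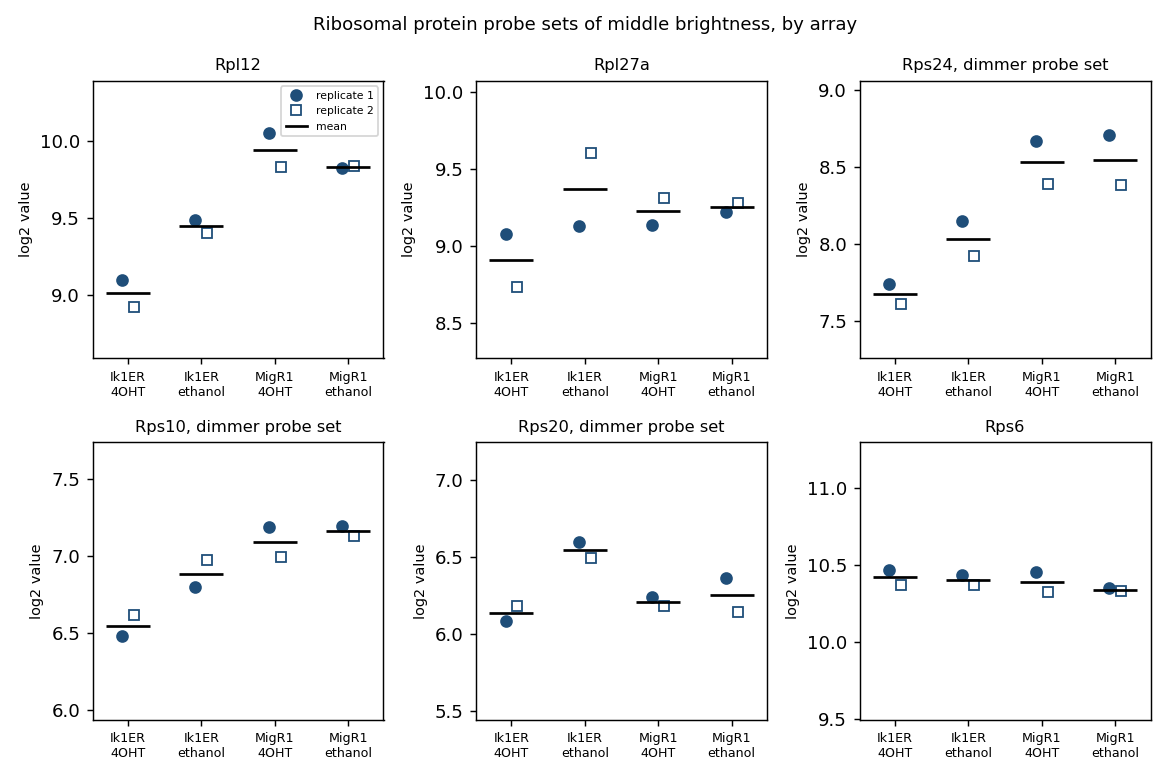
Log2 values of 6 probe sets of middle brightness on the 8 arrays, with filled circles for replicate 1, open squares for replicate 2 and a bar for the mean of the 2 arrays. Rpl12 and the dimmer probe sets of Rps24 and Rps10 are lowest in Ik1ER 4OHT cells and below both MigR1 groups in Ik1ER ethanol cells, while the groups of Rps6 overlap.

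Other large subunit proteins with a role at the factor-binding stalk or in the p53 checkpoint were read by 1 probe set each, near the top of the scale. Rplp0, the stalk's core, read 14.40 and 14.37 in Ik1ER 4OHT cells, 14.40 and 14.40 in Ik1ER ethanol cells, 14.39 and 14.38 in MigR1 4OHT cells, and 14.39 and 14.40 in MigR1 ethanol cells. Its change in Ik1ER cells was -0.01 (95% interval -0.16 to 0.14). Rplp2, which binds to Rplp0, changed by -0.007 in Ik1ER cells (95% interval -0.16 to 0.15). Rpl11, which can bind and inhibit Mdm2, changed by -0.04 (95% interval -0.19 to 0.12). For each of the 3 genes the 8 arrays ranged by less than 0.1, and none passed the test, which at this brightness does not show that the transcripts were stable.

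Rpl22 read 14.01 and 14.02 in Ik1ER 4OHT cells, 14.03 and 14.03 in Ik1ER ethanol cells, 14.06 and 14.04 in MigR1 4OHT cells, and 14.04 and 14.02 in MigR1 ethanol cells. Its change in Ik1ER cells was -0.02 (95% interval -0.17 to 0.13, adjusted p = 0.935). Its paralog Rpl22l1, which takes its place in ribosomes when Rpl22 is missing in mice, read 11.90 and 11.75, against 11.91 and 11.87 in ethanol. In MigR1 cells it read 11.98 and 11.64 in 4OHT and 11.88 and 11.63 in ethanol. Replicate 1 was above replicate 2 in each group, and the change in Ik1ER cells was -0.07 (95% interval -0.37 to 0.24).

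Among the other large subunit members, Rpl14 changed by -0.13 and Rpl37 by -0.11 in Ik1ER cells, neither past the test (adjusted p = 0.515 and 0.558). Rpl39, a protein of the exit tunnel, read 7.61 and 7.61 in Ik1ER 4OHT cells, against 7.90 and 7.64 in Ik1ER ethanol cells. In MigR1 cells it read 7.57 and 7.64 in 4OHT and 7.62 and 7.65 in ethanol. The Ik1ER ethanol replicate 1 array was the high one, and the change of -0.16 did not pass (adjusted p = 0.464). Rpl7, an outer protein of the large subunit, was within 0.1 in each comparison, with 0.05 in Ik1ER over MigR1 cells in 4OHT (adjusted p = 0.766). Its paralog Rpl7l1 was among the 3 lowest members in Ik1ER cells. It read 10.71 and 10.81 in 4OHT, against 10.91 and 10.93 in ethanol, and 10.84 and 10.83 in MigR1 4OHT cells, against 10.77 and 10.94 in MigR1 ethanol cells. The Ik1ER 4OHT pair was below the Ik1ER ethanol pair, and the change of -0.16 (95% interval -0.35 to 0.03) did not pass (adjusted p = 0.364).

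In the small subunit no gene was called in any comparison. Rps6, the substrate of the S6 kinases downstream of mTORC1, read 10.47 and 10.37 in Ik1ER 4OHT cells, 10.43 and 10.37 in Ik1ER ethanol cells, 10.46 and 10.32 in MigR1 4OHT cells, and 10.35 and 10.33 in MigR1 ethanol cells. The groups overlapped, and the change in Ik1ER cells was 0.02 (95% interval -0.16 to 0.20). Rps19, a protein of the small subunit that is mutated in Diamond-Blackfan anaemia, read 13.91 and 13.93 in Ik1ER 4OHT cells, 13.98 and 13.99 in Ik1ER ethanol cells, 13.97 and 13.96 in MigR1 4OHT cells, and 13.98 and 13.93 in MigR1 ethanol cells. Its change of -0.07 was the lowest among the members above 13 and did not pass (adjusted p = 0.685). Rpsa, a small subunit protein also known as the laminin receptor, changed by 0.001 (95% interval -0.15 to 0.15).

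Rps27 and its paralog Rps27l, a p53 target, moved little. Rps27 read 8.05 and 8.04 in Ik1ER 4OHT cells, 7.98 and 8.01 in Ik1ER ethanol cells, 8.05 and 8.03 in MigR1 4OHT cells, and 8.04 and 7.98 in MigR1 ethanol cells. Rps27l read 12.63 and 12.64, against 12.67 and 12.67 in Ik1ER ethanol cells, with 12.61 and 12.60 in MigR1 4OHT cells and 12.60 and 12.63 in MigR1 ethanol cells. The pairs of both genes did not overlap within Ik1ER cells, yet the changes of 0.05 (adjusted p = 0.768) and -0.03 (adjusted p = 0.878) did not pass. Rps25, which serves initiation at internal ribosome entry sites, was the lowest small subunit gene in Ik1ER over MigR1 cells in 4OHT, at -0.10 (adjusted p = 0.596). Rps9 was the highest small subunit gene in the difference of the 4OHT effects, at 0.06 (95% interval -0.16 to 0.28).

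Of the 49 genes, 4 had means under the Bacillus control limit of 5.27, so their changes are not readable as changes of a transcript. Rpl39l, the testis-enriched paralog of Rpl39, read 3.74 and 3.88 in Ik1ER 4OHT cells, 3.82 and 3.67 in Ik1ER ethanol cells, 3.71 and 3.91 in MigR1 4OHT cells, and 3.79 and 3.96 in MigR1 ethanol cells. Rpl3l, the paralog of Rpl3 found in heart and skeletal muscle, read 4.01 and 3.88, against 3.71 and 3.75 in Ik1ER ethanol cells, with 3.57 and 3.68 in MigR1 4OHT cells and 3.92 and 3.66 in MigR1 ethanol cells. Its changes were the highest of all members, 0.21 in Ik1ER cells and 0.32 in Ik1ER over MigR1 cells in 4OHT, and did not pass (adjusted p = 0.342 and 0.143). Rps4l and Rps16 also lay in this range, with means of 3.54 and 3.66. For Rps16, a core protein of the small subunit, that is the reading of its only probe set with a single symbol and not a level of the gene.

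The members fell into classes of brightness, which were drawn after the values were seen and are described without a test. Probes differ in how well they bind, so a brighter probe set does not mean a more abundant transcript. Of the 49 genes, 34 had a mean above 13, 3 lay from 11 to 13 (Rpl22l1, Rpl37 and Rps27l), 8 lay from the control limit to 11 (Rpl12, Rpl14, Rpl27a, Rpl39, Rpl7l1, Rps25, Rps27 and Rps6) and 4 below it. The members above 13 had means of 13.77 (Rpl27) to 14.50 (Rpl37a), near the array maxima of 14.69 to 14.73. Over the 8 arrays they ranged by a median of 0.057, from 0.028 in Rpl27 to 0.118 in Rps18. All 34 stayed within 0.1 in each of the 5 comparisons. The other 129 genes above 13 had a median range of 0.130, and 82.2% of them stayed within 0.1 in the 4OHT comparison of Ik1ER cells. Of all 163 genes above 13, 1.84% were called there, and 3.07% in Ik1ER over MigR1 cells in 4OHT. Whether values this near the top of the scale compress a change was not tested.

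Many of these bright genes also had dimmer probe sets, and those did not always read as their bright set did. Of the 60 member probe sets above 13, 59 were within 0.1 in Ik1ER cells (4OHT over ethanol), with a median of -0.01. All 373 probe sets above 13, with these 60 among them, had a median of -0.01 as well. Of the 24 member probe sets between the control limit and 11, which belong to 18 genes, 20 were below 0, with a median of -0.14. Not all 24 are dimmer sets of bright genes. Rpl12, Rpl14, Rpl27a, Rpl39, Rpl7l1, Rps25, Rps27 and Rps6 had no brighter set, and the sets that stand for them are included. All 21142 probe sets of that brightness had a median of 0.01, with 47.4% below 0. In MigR1 cells 10 of the same 24 were below 0, with a median of 0.02. Between the lines (Ik1ER over MigR1) 18 of the 24 were below 0 in 4OHT, with a median of -0.09. In ethanol 10 were below 0, with a median of 0.06. There 0 were called, and 5 (20.8%) were at an unadjusted limma p under 0.05, against 8.27% of all sets of that brightness. Probe sets of 1 gene share its transcript, so the 24 are not independent. With both Ik1ER replicate 2 arrays left out, 19 of the 24 were below 0 in Ik1ER cells, with a median of -0.12, and with any single array left out the count was 20 or 21.

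**Figure D4:**
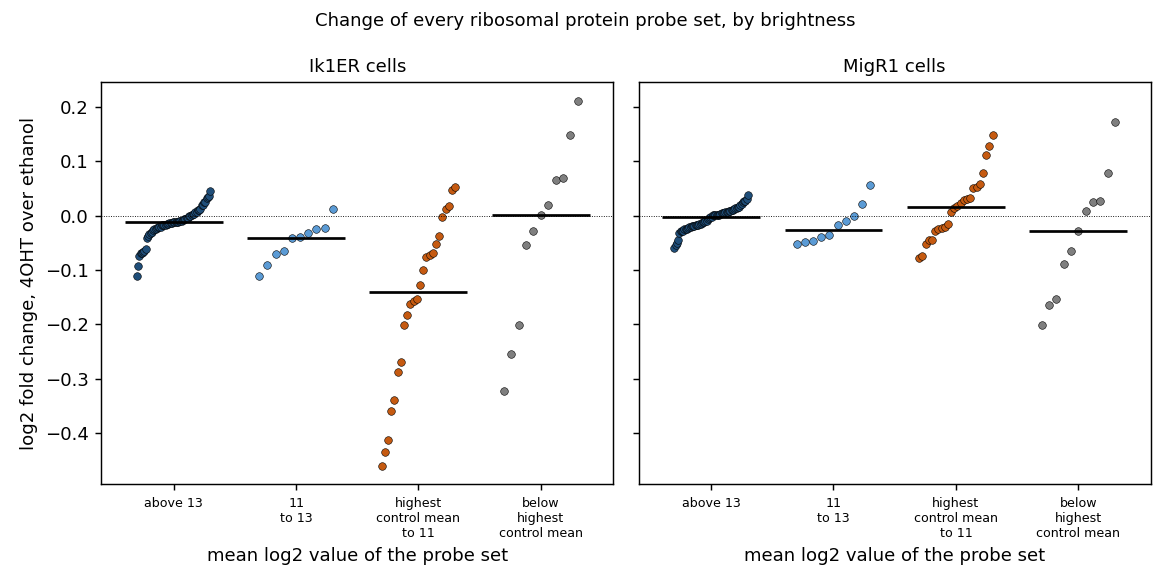
Each point is 1 of the 105 ribosomal protein probe sets, placed by brightness class and by its log2 change, 4OHT over ethanol, in Ik1ER cells (left) and MigR1 cells (right), with a bar at the median of the class. In Ik1ER cells the class between the control limit and 11 has a median of -0.14, while the class above 13 stays near 0, and in MigR1 cells both medians are near 0.

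In the 4OHT comparison of Ik1ER cells 7 of the 24 (29.2%) were at an unadjusted p under 0.05, against 20.2% of all sets of that brightness. None of the 24 passed adjustment over all 45037 probe sets, where limma called 2.5% of probe sets and 4.58% of those of that brightness. Rpl12 was at adjusted p = 0.0899 by this count. In Ik1ER over MigR1 cells in 4OHT, 3 of the 24 were called, all lower, with 2.13% of all probe sets called and 0.928% called lower. Of all 21142 sets of that brightness 3.93% were called there, and 379 sets were called lower. In the difference of the 4OHT effects 0 of the 24 were called, with 0.393% of all probe sets called and 0.766% of those of that brightness. At an unadjusted p under 0.05 there were 4 (16.7%), against 12.4% of all sets of that brightness. The 3 called between the lines in 4OHT were Rpl12 (adjusted p = 0.00547) and dimmer probe sets of Rps24 and Rps10. Rps24 and Rps10 are both Diamond-Blackfan anaemia genes of the small subunit. The dimmer Rps24 probe set read 7.74 and 7.61 in Ik1ER 4OHT cells, 8.15 and 7.92 in Ik1ER ethanol cells, 8.67 and 8.39 in MigR1 4OHT cells, and 8.71 and 8.39 in MigR1 ethanol cells. Its difference was -0.85 in 4OHT (adjusted p = 0.0281) and -0.51 in ethanol. The bright Rps24 probe set read 14.29 and 14.27 in Ik1ER 4OHT cells, 14.31 and 14.28 in Ik1ER ethanol cells, 14.24 and 14.25 in MigR1 4OHT cells, and 14.27 and 14.30 in MigR1 ethanol cells. So the dimmer set put all 4 Ik1ER arrays below all 4 MigR1 arrays, and the bright set did not.

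The dimmer Rps10 probe set read 6.48 and 6.61 in Ik1ER 4OHT cells, 6.80 and 6.97 in Ik1ER ethanol cells, 7.18 and 6.99 in MigR1 4OHT cells, and 7.19 and 7.13 in MigR1 ethanol cells. It was -0.54 in Ik1ER over MigR1 cells in 4OHT (adjusted p = 0.0442), a call lost when any single array was left out (adjusted p up to 0.256). The Rps24 call was lost when any of the 4 compared arrays was removed (adjusted p up to 0.191). Without both Ik1ER replicate 2 arrays the Rps24 set was at adjusted p = 0.130 and the Rps10 set at 0.0902. A dimmer probe set of Rps18, which lies in the head of the small subunit, read 6.83 and 6.73 in Ik1ER 4OHT cells, 7.04 and 7.09 in Ik1ER ethanol cells, 7.42 and 7.15 in MigR1 4OHT cells, and 7.25 and 7.06 in MigR1 ethanol cells. Its difference between the lines in 4OHT, -0.50, did not pass (adjusted p = 0.0758). A dimmer probe set of Rps20, also of the small subunit's head, read 6.09 and 6.18 in Ik1ER 4OHT cells, 6.60 and 6.49 in Ik1ER ethanol cells, 6.24 and 6.18 in MigR1 4OHT cells, and 6.37 and 6.14 in MigR1 ethanol cells. Here the Ik1ER ethanol arrays were the high ones, above the arrays of every other group, and the change of -0.41 did not pass (adjusted p = 0.0922). The bright sets of Rps10, Rps18 and Rps20 stayed within 0.1 in each comparison. The bright sets of Rps20 and Rps24 were of the cross-hybridising type (_x_at). With such sets kept only for genes lacking any other, the dimmer sets stood for Rps20 and Rps24. Which transcripts the bright or the dimmer sets read was not tested.

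Of the 110 probe sets with several symbols, 77 had a mean above 13, and 88 of the 110 were within 0.1 in Ik1ER cells (4OHT over ethanol), with a median of -0.03. Only 1 was called, where 2.5% of all probe sets were. That set was called higher, with its Ik1ER ethanol mean below the control limit, and it is assigned to no gene. The others ran from -0.41 to 0.18.

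Other TOP messenger genes, which encode translation factors and similar proteins, had 19 of 23 measured, with a median of -0.03 in Ik1ER cells (4OHT over ethanol). Of the 19, 0 were called, where 5.34% of all genes were. In lists of 15 to 20 genes, 0 calls is not set apart from that share. Eif4b, an initiation factor, changed by -0.11 (adjusted p = 0.553). In the list of mTORC1 and Larp1 control, 0 of 15 were called, with a median of -0.02. The translation repressor Eif4ebp1 changed by -0.33 (adjusted p = 0.233) and the mTORC1 activator Rheb by -0.22 (adjusted p = 0.188). With single arrays left out Eif4ebp1 ran from -0.52 to -0.14 and Rheb from -0.29 to -0.14, and without both Ik1ER replicate 2 arrays Rheb was at -0.10. Of the 20 genes of ribosome assembly and RNA polymerase I, 0 were called and 17 (85%) were below 0, against 51.2% of all genes. Their median was -0.09, against -0.004 for all genes. Polr1b, the second largest subunit of RNA polymerase I, read 9.01 and 9.01 in Ik1ER 4OHT cells, 9.37 and 9.26 in Ik1ER ethanol cells, 9.37 and 9.37 in MigR1 4OHT cells, and 9.29 and 9.42 in MigR1 ethanol cells. Both Ik1ER 4OHT arrays were below all others. Between the lines in 4OHT Polr1b was the only 1 of the 20 called, where 2.17% of all genes were called lower. Its change of -0.30 did not pass (adjusted p = 0.0699), while its difference from MigR1 cells in 4OHT, -0.36, did (adjusted p = 0.0385), a call lost when any single array was left out (adjusted p up to 0.192).

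Of 8 measured factors that bind ribosomal protein gene promoters, 1 was called in Ik1ER cells (4OHT over ethanol), where 5.34% of all genes were, and 2 between the lines in 4OHT, where 5.08% were. Myc, an activator of growth genes, read 11.14 and 11.14 in 4OHT, against 11.68 and 11.55 in ethanol, a change of -0.48 (adjusted p = 0.0123). That call was lost without the Ik1ER ethanol replicate 1 array (adjusted p = 0.0808) and without both Ik1ER replicate 2 arrays (adjusted p = 0.0656). Between the lines in 4OHT Myc was at -0.45 (adjusted p = 0.0175), a call lost when any of the 4 compared arrays was removed (adjusted p up to 0.141). Mycn, its relative, read 12.90 and 13.17 in Ik1ER 4OHT cells, 12.77 and 12.98 in Ik1ER ethanol cells, 13.80 and 13.83 in MigR1 4OHT cells, and 13.80 and 13.79 in MigR1 ethanol cells. All 4 Ik1ER arrays were below all 4 MigR1 arrays. Its difference between the lines was -0.78 in 4OHT (adjusted p = 0.00744), lost without either MigR1 4OHT array (adjusted p up to 0.0655), and -0.92 in ethanol, which did not pass (adjusted p = 0.433). In Ik1ER cells, 4OHT over ethanol was 0.16 and did not pass (adjusted p = 0.521).

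The p53 list had 3 of 9 measured genes called in Ik1ER cells (4OHT over ethanol), all higher, with a median of 0.29, against 5.34% of all genes called. Of the 9, 8 were above 0, and the 1 below 0 was Cdkn1a at -0.17, which was not called. Cdkn1a read 9.62 and 10.32 in Ik1ER 4OHT cells, against 9.99 and 10.30 in Ik1ER ethanol cells. In the difference of the 4OHT effects 1 of the 9 was called, Trp53inp1 at 0.83 (adjusted p = 0.0323), against 1.26% of all genes, and that call was kept only when the Ik1ER ethanol replicate 2 array was the one removed (adjusted p up to 0.138). The p53-induced gene Trp53inp1 rose by 0.87 (adjusted p = 0.00231) and kept its call whichever single array was removed. Sesn1, which restrains mTORC1, rose by 0.48, a call lost when any of the 4 Ik1ER arrays was removed (adjusted p up to 0.108). Zmat3, another p53 target, rose by 0.59, a call kept only when the Ik1ER 4OHT replicate 1 array was the one removed (adjusted p up to 0.203). Between the lines in 4OHT 3 of the 9 were called, all higher, against 5.08% of all genes called. They were Trp53inp1 at 1.01, Sesn1 at 0.47 and Ccng1, a p53-induced cyclin, at 0.35. The Sesn1 call was lost when any of the 4 compared arrays was removed (adjusted p up to 0.151), and the Ccng1 call was kept only when the Ik1ER 4OHT replicate 1 array was the one removed (adjusted p up to 0.184).

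The ribosomal proteins of mitochondria, a separate family, gave 4 calls among 76 genes (4OHT over ethanol in Ik1ER cells), with a median of -0.01. That share is close to the 5.34% of all genes, so the 4 are given only as values. Mrps25 fell by 0.47, Mrpl52 by 0.35 and Mrpl24 by 0.32, and Mrpl9 rose by 0.58. With single arrays left out Mrpl24 lost its call in every fit, and Mrpl52 kept it only without the Ik1ER 4OHT replicate 2 array. The Mrps25 call was lost without either Ik1ER ethanol array. The Mrpl9 call was lost without the Ik1ER 4OHT replicate 1 or the Ik1ER ethanol replicate 2 array. Without both Ik1ER replicate 2 arrays the changes were -0.46 (Mrps25), -0.39 (Mrpl52), -0.31 (Mrpl24) and 0.55 (Mrpl9), with 1 array left in each Ik1ER group. Between the lines in 4OHT 3 of the 76 were called, all lower, against 2.17% of all genes called lower, and they were Mrps25 at -0.50, Mrpl24 at -0.40 and Mrpl52 at -0.35. In that comparison 57 of the 76 (75%) were below 0, against 50.8% of all genes, with a median of -0.07. In MigR1 cells (4OHT over ethanol) 69 of the 76 were above 0, with a median of 0.04. There 9.21% were below 0, against 46.4% of all genes. With single arrays left out the Mrpl52 call between the lines was lost in every fit. The Mrpl24 call was lost without either MigR1 4OHT array and without the Ik1ER 4OHT replicate 2 array. The Mrps25 call was lost without the MigR1 4OHT replicate 1 array. In Ik1ER cells (4OHT over ethanol) 53 of the 76 (69.7%) lay within 0.1 of 0, against 42 of the 49 cytosolic members (85.7%). The families were not compared at like brightness, so these shares do not show which was steadier. Of the 49 cytosolic readings, 34 lay near the top of the scale. Of the cytosolic probe sets of middle brightness, 10 of 24 (41.7%) were within 0.1 there, against 43.4% of all sets of that brightness.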

How the data were processed

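Biotin-labelled cRNA made from total RNA was put on Affymetrix arrays, per the labels' protocols. The values deposited by the authors are log2 expression values from RMA, as the submitters' processing notes name it. Not given in the sources used here are the probe set definitions, the genome build and the version of RMA. RMA gives arrays a common distribution, which hides a shift of all transcripts. Symbols came from the platform annotation (34945 probe sets with 1 symbol, 932 with several, 9160 not listed, 64 controls); all 49 members matched a RefSeq gene by identifier.

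limma 3.58.1 (R 4.3.3) was fitted with lmFit and eBayes on the 4 group means of all 8 arrays, and p-values were adjusted by Benjamini-Hochberg over 18193 genes, called under 0.05. The fit was tested on simulated data. Members and lists were chosen with earlier results of these data known. Text names members called in any comparison, the 3 highest and 3 lowest in each, those below the controls and a list set by role; of the other lists, genes called or those of smallest p. Alternatives covered probe set choice, dim genes, eBayes settings, normalisation, arrays fitted and left out, and a replicate block.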

Additional observations from a re-analysis of the deposited data

Results flagged for a closer look

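A probe set that carries 2 symbols, at least 1 of them a ribosomal protein gene, stood outside the comparisons of single genes and was called higher in Ik1ER cells. It was the only 1 called of the 110 with several symbols, where 2.5% of all probe sets were called. It read 6.46 and 5.92 in Ik1ER 4OHT cells, 4.88 and 5.01 in Ik1ER ethanol cells, 5.32 and 5.11 in MigR1 4OHT cells, and 5.21 and 5.14 in MigR1 ethanol cells, so both Ik1ER 4OHT arrays were above all others. Only the Ik1ER 4OHT mean was clearly above the control limit of 5.27, and the means of Ik1ER ethanol cells and MigR1 4OHT cells were below it, so the sizes of the fitted changes cannot be read as changes of a transcript. Counted from that limit, the Ik1ER 4OHT mean was at least 0.91 higher on the log2 scale. The fitted log2 change was 1.24 in 4OHT over ethanol in Ik1ER cells (SE 0.168, limma adjusted p = 0.0113) and 0.97 in Ik1ER over MigR1 cells in 4OHT (adjusted p = 0.0306). Leaving out single arrays gave 0.97 to 1.51 for the first, lost without either Ik1ER ethanol array (adjusted p up to 0.0891). It gave 0.70 to 1.24 for the second, lost without any array other than the 2 Ik1ER 4OHT arrays (adjusted p up to 0.234). Without both Ik1ER replicate 2 arrays both calls were kept. The gene it reads is not assigned.

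Among further probe sets of genes that a brighter set stood for, that of Rps24 was -0.85 and that of Rps10 was -0.54 in Ik1ER over MigR1 cells in 4OHT, both called lower although the bright sets of these genes were within 0.1. The bright Rps24 set is of the cross-hybridising type (_x_at). The difference between the sets of a gene was not tested.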

How the results depend on the processing

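The number of members called in Ik1ER cells (4OHT over ethanol) was 1; it was 2 when cross-hybridising probe sets (_x_at) were kept only for genes lacking any other (Rpl12, and Rps20 at -0.41, adjusted p = 0.0464), 0 with only the arrays compared, 0 without both Ik1ER replicate 2 arrays (chosen after seeing the data), and 0 to 1 with single arrays left out. In Ik1ER over MigR1 cells in 4OHT it was 1, and 2 under the same probe set choice (Rpl12, and Rps24 at -0.85, adjusted p = 0.0136). Centring each array on its median moved the members' median to 0.0161 in MigR1 cells, -0.0353 for the difference of effects, 0.0205 for the lines in 4OHT and 0.0553 for the lines in ethanol; it moved the median of all genes by -0.03 to 0.05. The median for the difference of effects ran from -0.0234 to 0.00766 with single arrays left out, the highest without the MigR1 4OHT replicate 1 array. No direction of a called value was reversed. Genes called in all ranged from 389 to 1354 in Ik1ER cells, from 237 to 1344 for the lines in 4OHT and from 52 to 444 for the difference of effects; the cause was not tested. With the replicate number as a block, Rpl12 was at adjusted p = 0.0275 in Ik1ER cells, members called stayed at 1 in both comparisons that had 1, the Rps10 set was at 0.0522, the Rps18 set at 0.0460, and genes called were 1160, 1073 and 341. The genes' differences between replicate 1 and replicate 2 correlated between groups at -0.07 to 0.45 over 6 pairs of groups. Between the treatments of a line the correlation was 0.45 in Ik1ER cells and 0.27 in MigR1 cells. The labels give no meaning to the numbers, so the block is only a shared number. With 2 arrays per group, signal near the top of the scale and near the controls limits what could be detected.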
